A study of Rattus norvegicus with 5 samples.

Results

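The 8 genes Hspa1a, Hspa1b, Hspa8, Hsp90aa1, Hspd1, Hspe1, Hsph1 and Dnajb1, which encode heat shock chaperones of the cytosol and the mitochondrion, were followed across 5 rat oligonucleotide arrays of retinal Müller cells. They are 8 of the 5147 genes listed on the arrays, chosen by name, and every probe set listed with one of these symbols was taken. Of 8740 probe sets that are not controls, 13 carry member symbols only. Among them 9 carry 1 symbol, which covers 5 genes (Hspa1a, Hspd1, Hspe1, Hsph1 and Dnajb1), and 4 carry both Hspa1a and Hspa1b. Another 5 are listed with a member and with further genes, and these are given by probe set name only. They hold the only probe sets listed with Hspa8 and with Hsp90aa1, so neither gene has a value of its own, and neither has Hspa1b.

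Müller cells, the main glia of the retina, came from male Sprague-Dawley rats. The normal group had 3 pools of cells from healthy rats, each from the retinas of 12 rats and each on 1 array. The diabetic group had 2 arrays of cells pooled from 12 rats that had carried streptozotocin-induced diabetes for 6 months and had been given a little insulin to prevent wasting. The second diabetic array is labelled a technical replicate, so both were averaged into 1 pool. With so few arrays every value is imprecise, and all spread in the tests comes from the 3 normal pools.

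Chaperones bind unfolded or partly folded proteins. Hsp70 proteins hold such stretches in cycles of ATP hydrolysis that J-domain proteins start and that nucleotide exchange factors reset. Hsp90 completes the folding of signalling proteins, and the chaperonin of the mitochondrial matrix folds imported proteins inside a closed chamber. Several of the genes are switched on by heat shock factors, which bind heat shock elements, inverted repeats of GAA and TTC in their promoters. Müller cells are known to induce heat shock genes when the retina is injured or heated.

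Heat shock elements of these genes are printed because they are the sequence feature the family is known for. RefSeq promoter windows of rat build GRCr8, from 250 bases before to 50 after the gene start, were at hand for 6 of the 8 genes, and those of Hspa1b and Hsp90aa1 were not analysed here. For each gene only the stretch before the start with the most matched bases is printed, and of equal stretches the one nearer the start. Further matches lay at bases -213 to -201 of Hspa8, -105 to -98 of Hsph1 and 18 to 25 of Dnajb1, counted from the start. That of Hspa8 is as long as the printed match, at -55 to -43. The stretches below lie before the start, run 5′ to 3′ on the gene's strand, and have the matched repeats in capitals.
Hspa8: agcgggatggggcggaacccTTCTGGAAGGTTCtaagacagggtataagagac
Hspe1: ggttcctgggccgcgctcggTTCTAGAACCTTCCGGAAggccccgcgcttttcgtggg
Hspd1: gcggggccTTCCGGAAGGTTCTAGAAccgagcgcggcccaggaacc
Hsph1: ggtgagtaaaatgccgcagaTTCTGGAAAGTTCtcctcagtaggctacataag
Dnajb1: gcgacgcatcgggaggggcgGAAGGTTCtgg

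Their positions are chr8:50080439-50080491 on the plus strand for Hspa8, chr9:64084242-64084299 on the plus strand for Hspe1 and chr9:64084242-64084287 on the minus strand for Hspd1. Those of Hsph1 and Dnajb1 are chr12:10427312-10427364 (plus strand) and chr19:41431142-41431172 (minus strand). Hspd1 and Hspe1 face away from each other, and their capitals are the same bases read on opposite strands. The 3-repeat motif, GAANNTTCNNGAA or its reverse complement TTCNNGAANNTTC, was found in the windows of Hspa8, Hspd1, Hspe1 and Hsph1, whereas 0.798% of the 33469 RefSeq promoter windows of that length hold it. The 2-repeat motif, GAANNTTC or TTCNNGAA, each its own reverse complement and each contained in the longer motif, was in the windows of these genes and of Dnajb1, against 15.9% of all windows. The Hspa1a window held neither. Only exact matches within the window were sought, so imperfect repeats and elements outside it would be missed. A match describes letters and is no measured binding.

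In the diabetic pool all 12 tested probe sets with member symbols only differed from the normal mean by less than the range of the 3 normal pools, as did 85.5% of all tested probe sets. Signals below are log2 values after quantile normalisation, with a floor of 4.32, and differences are diabetic minus normal on that scale. Of these 12 member probe sets, 11 lay below and 1 above the normal mean, while 51.2% of all 6118 tested probe sets lay below. The median difference was -0.26 over the 12 and -0.01 over all tested. The 12 weigh the genes unequally, since 5 of them measure Hspa1a, or Hspa1a with Hspa1b. With limma 0 of the 12 passed an adjusted p of 0.05 (0% of all tested), and 0 had an unadjusted p under 0.05 (1.6% of all tested, 98 probe sets, 1.19% higher and 0.409% lower in diabetic cells). The lowest unadjusted p was 0.0876, and both diabetic arrays lay outside the normal range for 0 of the 12. Over all tested probe sets 9.53% had both diabetic arrays above all normal arrays and 7.01% had both below. The direction rested on diabetic array 2. Without it 4 of the 12 lay below normal and the median difference was 0.055, and without diabetic array 1 all 12 lay below, with a median of -0.41.

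**Figure D1:**
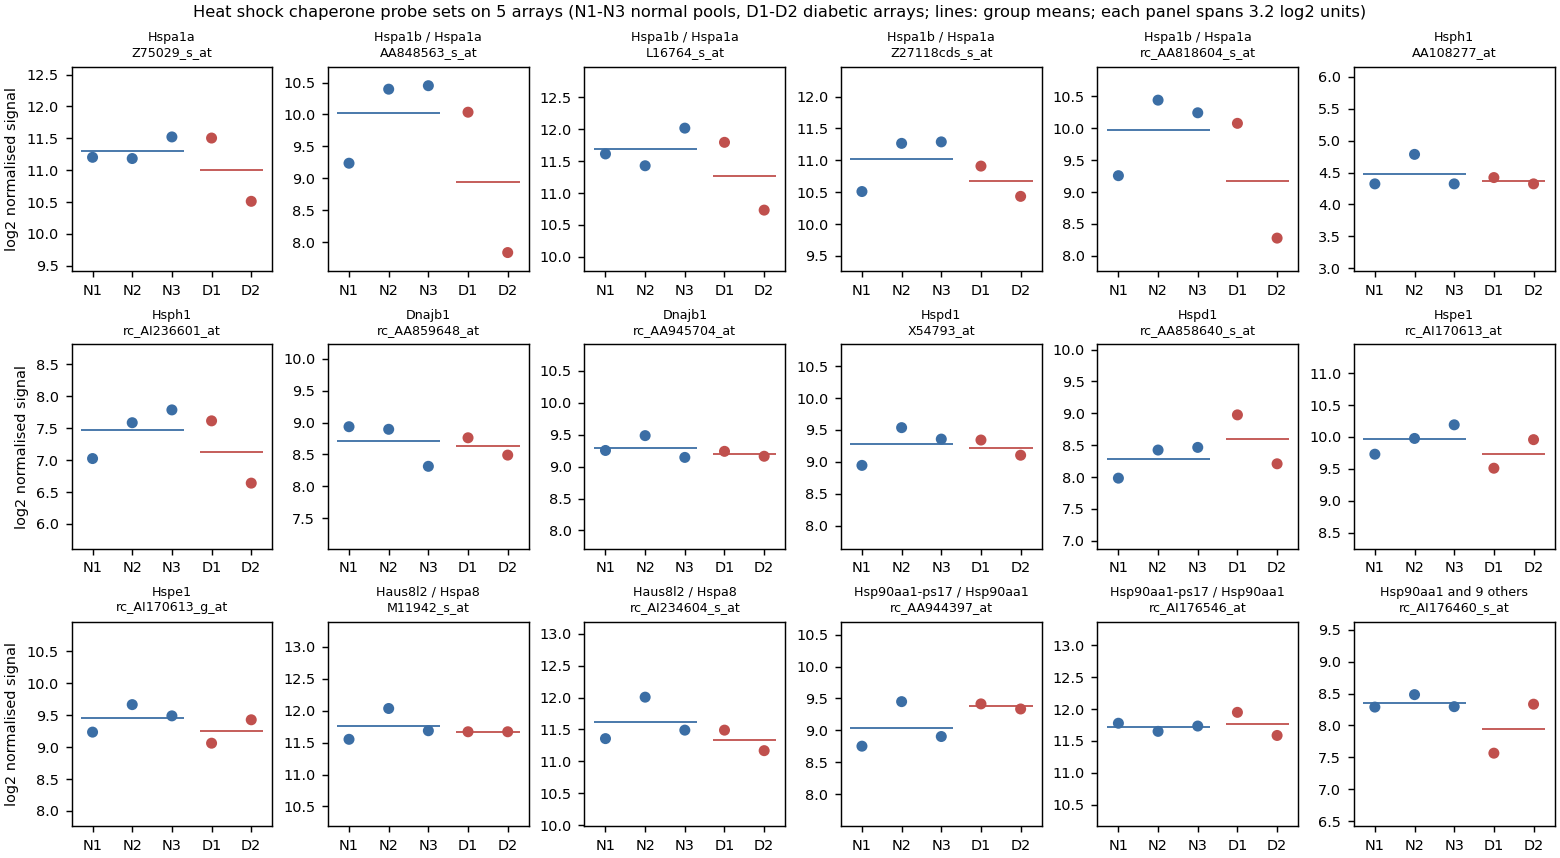
Log2 normalised signal of the 18 probe sets listed with a chaperone gene on the 3 normal pools (N1 to N3, blue) and the 2 diabetic arrays (D1 and D2, red), 1 panel per probe set; lines are group means and every panel spans the same height. Among the panels of Hspa1a, and of Hspa1b with Hspa1a, D2 is the lowest array in all 5, and their ranges are 0.85 to 2.62. The Dnajb1 and Hspe1 panels range over 0.34 to 0.68, and some others spread as little, such as X54793_at of Hspd1 at 0.59.

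Hspa1a and Hspa1b encode the stress-inducible Hsp70, and as near-identical copies they cannot be told apart by most of these probe sets. The probe set listed with Hspa1a alone, Z75029_s_at, was at 11.20, 11.18 and 11.52 in normal pools 1, 2 and 3, and at 11.50 and 10.51 on diabetic arrays 1 and 2. Diabetic array 1 lay within the normal range, and array 2 lay below all other arrays. Its difference was -0.29 (SE 0.26, 3 normal pools against 1 diabetic pool; 95% interval -0.94 to 0.35; limma, unadjusted p = 0.301).

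Diabetic array 2 was also the lowest array for the 4 probe sets listed with both genes. AA848563_s_at was at 9.24, 10.40 and 10.45 in the normal pools and at 10.04 and 7.83 on the diabetic arrays. Normal pool 1 was thus the lowest of its group, and diabetic array 2 the lowest of all. The difference was -1.09 (SE 0.53, 95% interval -2.41 to 0.22; limma, unadjusted p = 0.0876, adjusted p = 0.9999), or 0.469 times the normal signal. On diabetic array 1 alone it was 0.0078, and on array 2 alone -2.19.

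rc_AA818604_s_at was at 9.26, 10.44 and 10.24 in the normal pools and at 10.08 and 8.28 on the diabetic arrays. Its difference was -0.80 (SE 0.50; limma, unadjusted p = 0.16), made of 0.10 on diabetic array 1 and -1.70 on array 2. L16764_s_at stood at 11.61, 11.43 and 12.02 in normal cells and at 11.80 and 10.73 in diabetic cells, with a difference of -0.42 (SE 0.31). Here normal pool 2, not pool 1, was the lowest normal array. Z27118cds_s_at stood at 10.51, 11.27 and 11.29 in normal cells and at 10.91 and 10.43 in diabetic cells, with a difference of -0.35 (SE 0.38). It was the only one of the 5 to lie below the normal mean on both diabetic arrays, by -0.11 and -0.59.

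The Hspa1 probe sets differed more between the 2 diabetic arrays than between the diabetic and normal means. The gap between array 1 and array 2 ran from 0.47 to 2.20 over the 5 probe sets, the largest a 4.60-fold ratio for AA848563_s_at. A gap that large was found for only 0.409% of all tested probe sets, and that of rc_AA818604_s_at, 1.80, for 1.14%. The median gap over all tested probe sets was 0.36. Diabetic array 2 was the lowest of the 5 arrays for all 5 Hspa1 probe sets and for 15.8% of all tested. Of the 12 member probe sets, 11 had a gap between the diabetic arrays larger than their diabetic to normal difference, as had 64.5% of all tested.

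**Figure D2:**
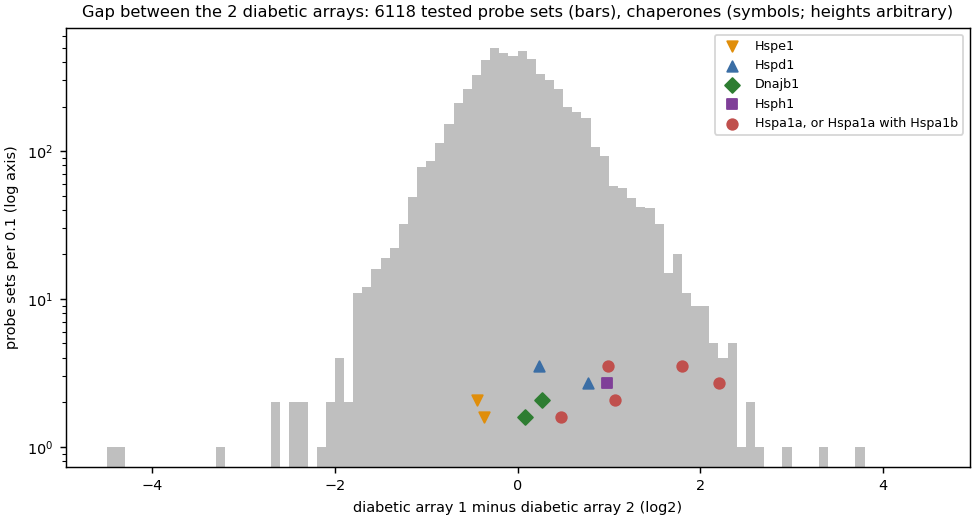
Gap between diabetic array 1 and diabetic array 2 in log2 units for all 6118 tested probe sets (grey bars, counts on a log axis) and for the 12 tested member probe sets (symbols, whose height carries no value). All 5 probe sets of Hspa1a, or of Hspa1a with Hspa1b, lie on the positive side, up to 2.20, while Hspe1 lies on the negative side.

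For 3 of the 5 Hspa1 probe sets, low signal went with an excess of 3′ over 5′ actin signal, a ratio used to judge RNA quality. The actin 3′ probe set read 2.61 times its 5′ probe set on normal array 1 and 2.55 times on diabetic array 2, and 1.46 to 1.76 times elsewhere. Both high-ratio arrays lay below the remaining 3 for 6 of the 12 member probe sets, namely AA848563_s_at, rc_AA818604_s_at, Z27118cds_s_at, both probe sets of Hspd1 and rc_AI236601_at of Hsph1, against 13.7% of all tested. For GAPDH these 2 arrays had ratios of 1.16 and 1.35, and the other 3 had ratios of 1.03 to 1.24. With both high-ratio arrays left out, the difference was -0.39 for AA848563_s_at, -0.26 for rc_AA818604_s_at, -0.37 for Z27118cds_s_at, 0.15 for Z75029_s_at and 0.072 for L16764_s_at. The part of RNA integrity in these values was not tested.

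Normal array 3 and diabetic array 2 share their hybridisation day and chip lot. Between them all 5 Hspa1 probe sets were lower on the diabetic array, by values from -0.85 for Z27118cds_s_at to -2.62 for AA848563_s_at. Of all tested probe sets, 48.2% were lower on it. This sets 1 array against 1 array. Their actin 3′ to 5′ ratios were 1.46 for normal array 3 and 2.55 for diabetic array 2. The record of diabetic array 1 gave no day or lot, and each of the other normal arrays had its own.

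The Hsp70 partners were measured by 4 probe sets. Hsph1 encodes a nucleotide exchange factor of Hsp70, and its tested probe set rc_AI236601_at was at 7.02, 7.59 and 7.79 in normal cells and at 7.62 and 6.64 in diabetic cells. As for AA848563_s_at, diabetic array 2 was the lowest array and normal pool 1 the next. The difference was -0.34 (SE 0.42, 95% interval -1.39 to 0.72), or 0.15 on diabetic array 1 and -0.83 on array 2. The other Hsph1 probe set, AA108277_at, was at the floor on 3 of 5 arrays and reached 4.78 in normal pool 2 and 4.42 on diabetic array 1; it was too dim to be tested.

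Dnajb1 encodes the J-domain protein that delivers clients to Hsp70. Its probe set rc_AA859648_at was at 8.94, 8.90 and 8.31 in normal cells and at 8.76 and 8.49 in diabetic cells. Both diabetic arrays lay inside the normal range, and the difference was -0.09 (SE 0.35, 95% interval -0.96 to 0.78). The second, rc_AA945704_at, was at 9.25, 9.49 and 9.15 in normal and at 9.24 and 9.16 in diabetic cells. Its difference was also -0.09 (SE 0.26), and its 95% interval spanned 0.593 to 1.48 times the normal signal. For both, normal pool 3 and not diabetic array 2 was the lowest of the 5 arrays.

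Hspa8 encodes the constitutive Hsp70 of the cytosol. Both probe sets listed with it are also listed with Haus8l2. M11942_s_at was at 11.55, 12.04 and 11.69 in normal cells and at 11.67 on both diabetic arrays, a difference of -0.09 (SE 0.28). rc_AI234604_s_at was at 11.36, 12.01 and 11.49 in normal cells and at 11.49 and 11.17 in diabetic cells, a difference of -0.29 (SE 0.33). Both had normal pool 2 as their highest array, and the diabetic arrays overlapped the normal pools.

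Hsp90aa1 encodes the inducible cytosolic Hsp90. The 2 probe sets listed with it and with its pseudogene Hsp90aa1-ps17 lay above the normal mean. rc_AA944397_at was at 8.75, 9.45 and 8.90 in normal cells and at 9.41 and 9.33 in diabetic cells, with a difference of 0.34 (SE 0.35, 95% interval -0.53 to 1.21). rc_AI176546_at was at 11.78, 11.65 and 11.73 in normal cells and at 11.95 and 11.59 in diabetic cells, with a difference of 0.05 (SE 0.23). Neither group of arrays stood apart, since normal pool 2 was the highest array of the first and the diabetic arrays were the highest and the lowest of the second. The last probe set, rc_AI176460_s_at, is listed with 10 genes, among them ribosomal RNA and globin genes, and differed by -0.41 (SE 0.28; limma, unadjusted p = 0.199), more than its normal range of 0.20. Its diabetic arrays stood at 7.57 and 8.33, so array 2 lay inside the normal range of 8.29 to 8.48.

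The mitochondrial pair gave no common direction. Hspd1 encodes the chaperonin Hsp60, and X54793_at was at 8.94, 9.54 and 9.36 in normal cells and at 9.34 and 9.10 in diabetic cells, a difference of -0.06 (SE 0.32). Its other probe set, rc_AA858640_s_at, was at 7.98, 8.42 and 8.47 in normal cells and at 8.98 and 8.21 in diabetic cells. Among the 12 tested probe sets with member symbols only, it alone lay above the normal mean, by 0.30 (SE 0.32, 95% interval -0.50 to 1.10). This rested on diabetic array 1, at 0.68, against -0.083 for array 2.

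Hspe1 encodes Hsp10, the lid of that chaperonin, and rc_AI170613_at was at 9.73, 9.98 and 10.19 in normal cells and at 9.51 and 9.96 in diabetic cells. Diabetic array 1 was the lowest of the 5 arrays, the reverse of the Hspa1 order. The difference was -0.23 (SE 0.28, 95% interval -0.92 to 0.46). The second probe set from the same sequence, rc_AI170613_g_at, was at 9.24, 9.67 and 9.49 in normal and at 9.06 and 9.43 in diabetic cells, a difference of -0.22 (SE 0.28). Between the diabetic arrays, array 1 lay 0.45 and 0.37 below array 2 for Hspe1 and 0.24 and 0.77 above it for Hspd1. Whether these gaps differ was not tested, since both come from 1 pair of arrays.

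**Figure D3:**
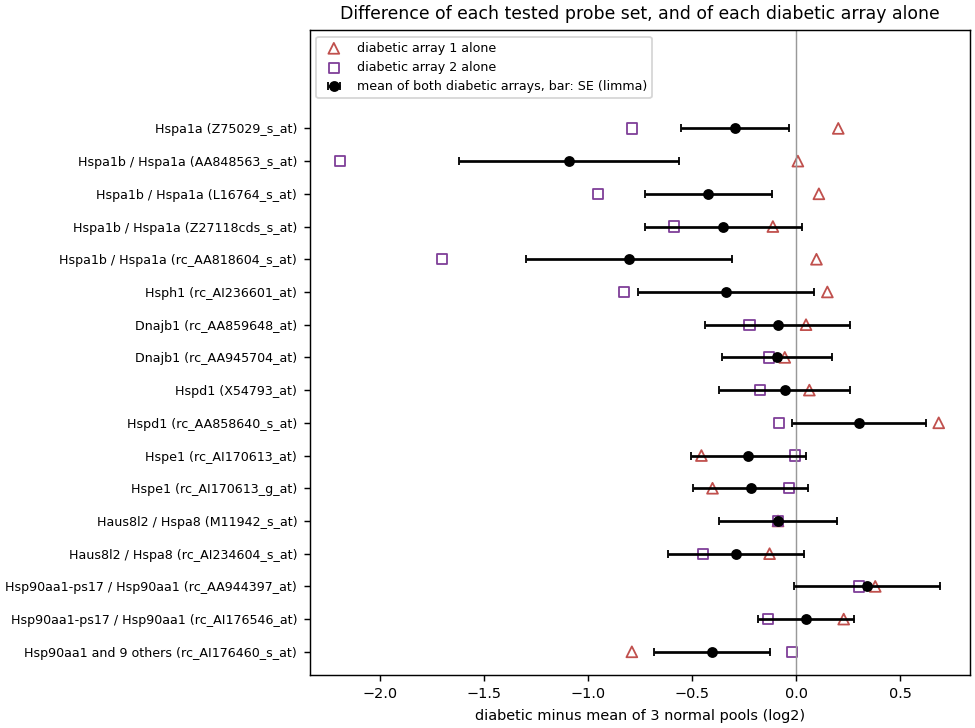
Diabetic minus normal difference in log2 units for the 17 tested probe sets listed with a chaperone gene (black, bars are limma's SE from 3 normal pools and 1 diabetic pool), with the difference of each diabetic array alone as open symbols. For 4 of the 5 probe sets of Hspa1a, or of Hspa1b with Hspa1a, array 1 lies near or above 0 and array 2 well below it, down to -2.19.

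Each gene's log2 values were centred on their mean over the 5 arrays, and the profiles of the 5 member genes with a tested probe set of their own were averaged. The genes nearest to this average were Dnaja3, Pdia4, Ncl, Smad2 and Slc16a1. Their root mean square distances from it were 0.04, 0.05, 0.06, 0.06 and 0.06. The average profile was -0.15, 0.17 and 0.22 in the normal pools and 0.06 and -0.31 on the diabetic arrays. Among these member genes, each by its brightest probe set of 1 symbol, Hsph1 had the widest range over the arrays, 1.15. Probe sets listed with both Hspa1a and Hspa1b, which ranged over 0.85 to 2.62, were left out here. The nearest to Hsph1 were Serpinh1 (0.08), Cul2 (0.09), Pla2g5 (0.09), Mxd4 (0.11) and Asic3 (0.12). All these profiles share the same 5 arrays and their RNA quality, so the likeness is a description only.

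The other genes of the chaperone system were counted next. By limma 0 of 46 genes in 6 lists of chaperones and their regulators, each counted by its brightest probe set with 1 symbol, passed the adjusted threshold, and 0 had an unadjusted p under 0.05. Over all 3623 genes counted so, 48 (1.32%) had one, so a count of 0 is near that share. Of the same genes 50.8% lay below normal, with a median of -0.01. Other Hsp70 proteins and co-chaperones had 9 of 15 genes below normal and a median of -0.07, which was -0.16 without diabetic array 1 and 0.039 without diabetic array 2. Their largest statistics were those of the J-domain protein gene Dnaja4 (-0.54, SE 0.30), the Hsp70 gene Hspa2 (0.79, SE 0.44) and the co-chaperone gene Sgta (-0.32, SE 0.33). Hspa2 stood at 6.48, 6.92 and 7.28 in normal cells and at 8.22 and 7.15 in diabetic cells, so array 2 lay inside the normal range.

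Other Hsp90 proteins and the partners of Hsp90 had 7 of 8 genes below normal and a median of -0.18, which came to -0.055 when normal array 2 was left out and to -0.066 when diabetic array 2 was. The kinase co-chaperone gene Cdc37 differed by -0.21 (SE 0.24), the cyclophilin gene Ppid by -0.31 (SE 0.41) and Stip1, whose protein joins Hsp70 to Hsp90, by -0.38 (SE 0.55). All 3 measured genes of the cytosolic chaperonin and prefoldin lay below normal, at -0.45 for Cct6a (SE 0.52), -0.12 for Pfdn2 (SE 0.42) and -0.04 for Cct3 (SE 0.34). Small heat shock proteins split, with 2 of 5 below and a median of 0.01, which was -0.30 without diabetic array 1 and 0.36 without diabetic array 2. Cryaa differed by -0.30 (SE 0.39), Cryab by -0.15 (SE 0.23) and Hspb1 by 0.39 (SE 0.58).

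Heat shock factor genes and other heat-inducible genes had 2 of 3 below normal. Hsf1, the main heat shock factor, differed by -0.12 (SE 0.42), the collagen chaperone gene Serpinh1 by -0.41 (SE 0.35) and the haem oxygenase gene Hmox1 by 0.36 (SE 0.32). Chaperones and stress genes of the endoplasmic reticulum had 4 of 12 below and a median of 0.09. Its sign turned without diabetic array 1 (-0.22) or normal array 1 (-0.09), and it was 0.27 without diabetic array 2 and 0.23 without normal array 2. Canx, a lectin chaperone, differed by 0.46 (SE 0.27), the disulfide isomerase genes Pdia2 by 0.97 (SE 0.86) and P4hb by 0.26 (SE 0.25). Pdia2 was at the floor in normal pool 1 and at 4.58 in pool 2. In normal pool 3, at 6.25, it lay above both diabetic arrays, at 5.91 and 6.13.

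Immediate early genes, which cells switch on rapidly after a stimulus, had 21 of 28 below normal and a median of -0.21, and 0 passed limma's threshold at either level. The median was -0.42, -0.083 and -0.35 without normal arrays 1, 2 and 3 in turn. Fos was at 11.73, 12.30 and 12.20 in normal cells and at 11.52 and 11.34 in diabetic cells, a difference of -0.64 (SE 0.31). Klf4 differed by -1.14 (SE 0.55) and Dusp1 by -0.84 (SE 0.42). Both diabetic arrays lay below all normal arrays for these and for Zfp36, Nr4a1, Arc and Junb, 7 of the 28, and above them for 1, Sgk1, against 7.01% and 9.53% of all tested probe sets. The first 3 were named for their large statistics and the others after their values were seen, and 20 of the 28 overlapped between groups. In the chaperone lists both diabetic arrays lay below for 1 of 15 Hsp70, 2 of 8 Hsp90 and 1 of 5 small heat shock protein genes. They lay above for 1 of 3 heat-inducible genes and 2 of 12 of the endoplasmic reticulum. All other genes of the 6 lists overlapped.

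**Figure D4:**
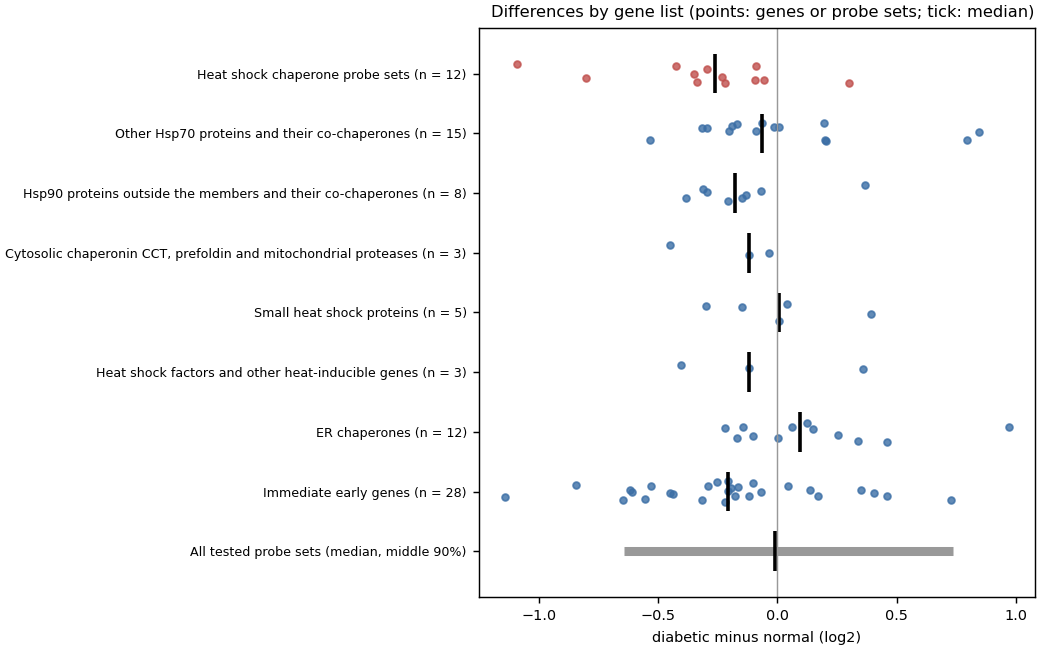
Diabetic minus normal difference in log2 units for the 12 tested member probe sets (red) and for each gene of 7 lists (blue), with medians as black ticks and, in grey, the middle 90% of single tested probe sets, -0.64 to 0.74, as a scale for single points and not for medians. The member median of -0.26 and the immediate early median of -0.21 lie left of 0 and the endoplasmic reticulum median of 0.09 right of it.

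The arrays and the cells were checked as a whole. The median deposited signal ran from 27.9 to 91.3. Of 14 Müller cell markers, 9 were tested, led by Clu and Apoe, and their summed signal was 34328 to 45202 in normal and 39817 to 41000 in diabetic cells. Photoreceptor markers (10 of 19 tested, led by Sag and Prph2) summed to 5644 to 12858 in normal and 15858 to 16279 in diabetic cells. Microglial and leukocyte markers (12 of 22, led by Ctss and C1qc) summed to 1866 to 2248 and 2581 to 2860, with Itgam, Cd8a and Csf1r too dim to be tested. Ttr, the only tested pigment epithelium marker of 10, was at 50.3 to 129.7 and 201.3 to 239.7, with Rpe65 too dim. Sums overlapped between groups for inner retinal neurons (15 of 21, led by Syp and Thy1), for endothelial cells and pericytes (8 of 16, led by Kdr and Slco1a4) and for erythrocytes (4 of 8, led by Hbb and Hbb-b1). The part of these markers in the chaperone values was not tested. In such bulk samples fewer cells of a type and less RNA per cell cannot be told apart.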

How the data were processed

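Total RNA of Müller cells was measured on 5 arrays of type RG_U34A, per the file headers. The deposited value is a linear intensity per probe set, and which algorithm and scaling the authors used is not given in the sources used. The deposited experiment records, whose text fields hold no expression values or scores, gave chip lot and hybridisation day. Trimmed means differed between arrays (73.8 to 259.7), so intensities were quantile normalised, floored at 20 and converted to log2; 59 controls were then removed and the dimmest 30% dropped, which left 6118 of 8740 probe sets. Folds understate changes of dim genes.

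The diabetic arrays were averaged on the log2 scale and set against the 3 normal pools with limma 3.58.1 (R 4.3.3; lmFit, eBayes with trend, 2 residual and 3.54 prior degrees of freedom), two-sided, with p-values adjusted by Benjamini and Hochberg's method over the 6118 and a threshold of 0.05. This takes the single diabetic pool to be as variable as normal pools are. The step was tested on simulated data. Symbols came from the platform annotation; 7006 probe sets have 1 symbol, 308 several and 1426 none, and 6985 matched a RefSeq gene table of assembly GRCr8 by Entrez ID. Promoters are RefSeq's.

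The members and lists were chosen with earlier results of these data known. Named genes were every member probe set, the 3 genes of each chaperone or stress list with the largest absolute statistic, the 5 nearest profiles and the 2 brightest genes of each marker list. Alternatives were other scalings, floors and filters, eBayes without trend, separate arrays, subsets of arrays and leaving out each array. Figures were drawn with matplotlib 3.10.9.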

Additional observations from a re-analysis of the deposited data

How the results depend on the processing

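By limma 0 member probe sets passed the adjusted threshold under the alternatives that allow a test, which the pair of arrays of the shared day does not. Over all probe sets the count rose from 0 to 147 with a floor of 50 and to 170 without the filter on dim probe sets, of which 138 and 162 had the same value in all 3 normal pools and so no measured spread, and to 13 with the 5 arrays as separate samples. The count of member probe sets below normal was 11 of 12, with a range of 4 to 12 and of the median from -0.41 to 0.055 when 1 array was left out. It was 2, with a median of 0.24, for the deposited values unscaled, where the median of all tested probe sets was itself 0.47 and 11 of the 12 lay below that median. Between the arrays of the shared day the median was -0.56. Of the 74 listed genes 48 lay below normal, 21 of them immediate early genes, against 50.8% of all genes counted so. The count was 37 to 53 with 1 array left out. Unscaled it was 8, where 9.73% of all tested probe sets lay below normal and all 7 list medians were above 0 (0.28 to 0.59).

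Signs turned in 34 of 255 comparisons of a probe set with an alternative. Only 1 of the 17 tested probe sets kept its sign under all alternatives. Other floors and filters, eBayes without trend and separate arrays left these differences unchanged, so under them no sign could turn. Unscaled, the differences were 0.45 and 0.42 for rc_AA859648_at and rc_AA945704_at, 0.40 and 0.22 for M11942_s_at and rc_AI234604_s_at, 0.23 for Z75029_s_at, 0.15 for L16764_s_at, 0.13 for Z27118cds_s_at, 0.47 for X54793_at, 0.25 and 0.29 for rc_AI170613_at and rc_AI170613_g_at, 0.16 for rc_AI236601_at and 0.10 for rc_AI176460_s_at. With normal array 1 and diabetic array 2 both left out they were 0.16 for rc_AA859648_at, 0.15 for Z75029_s_at and 0.072 for L16764_s_at. Within the shared day they were 0.18 for rc_AA859648_at, 0.018 for rc_AA945704_at, -0.15 for rc_AI176546_at, -0.26 for rc_AA858640_s_at and 0.039 for rc_AI176460_s_at. With 1 array left out they ran from -0.29 to 0.047 for rc_AA859648_at, -0.17 to 0.0021 for rc_AA945704_at, -0.19 to 0.051 for M11942_s_at, -0.13 to 0.23 for rc_AI176546_at, -0.79 to 0.20 for Z75029_s_at, -2.19 to 0.0078 for AA848563_s_at, -0.95 to 0.11 for L16764_s_at, -1.70 to 0.10 for rc_AA818604_s_at, -0.083 to 0.68 for rc_AA858640_s_at, -0.22 to 0.072 for X54793_at and -0.83 to 0.15 for rc_AI236601_at. The cause was not tested. No paired analysis was possible because the diabetic arrays are 1 pool. Array number limits precision, and AA108277_at lay too near the floor to be read.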
